A study of Homo sapiens with 4 samples.

Results

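The miR-130 and miR-301 family was followed in 4 RNA samples from the osteosarcoma cell line U2OS, which keeps wild-type p53. In each sample mature miRNAs were measured by quantitative PCR on 2 plates, panel I and panel II. Members were picked by assay name, as hsa-miR-130a, hsa-miR-130b, hsa-miR-301a or hsa-miR-301b with or without an asterisk, which gave 6 of the 737 different miRNA assays on the plates. They are 4 guide strands (miR-130a, miR-130b, miR-301a and miR-301b) and 2 opposite strands of the same hairpins (miR-130a* and miR-130b*). One comparison set cells carrying a short hairpin RNA against DDX1 (shDDX1) against cells carrying a control hairpin (shNS), both made by lentiviral infection and puromycin selection at 2 ug/ml. The other set cells given neocarzinostatin (NCS), a drug that makes DNA double-strand breaks (500 ng/ml, 6 h), against untreated cells. All cells grew in DMEM with 5% FBS, and whether infected cells were used as pools or as clones is not given in the sources used here. Each group had 1 sample, so no p-value was computed and no difference below has a replicate check.

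The family is defined by its seed, the stretch at bases 2 to 8 with which a miRNA pairs to its messenger RNA targets, so its members can act on overlapping sets of targets. Its miRNAs are known for repressing TGF-beta pathway genes and MEOX2, and for raised levels in several cancers. A miRNA is cut from its primary transcript by the nuclear Microprocessor (Drosha with DGCR8) and then by Dicer. DDX1 is a DEAD-box RNA helicase that the series title ties to the first of these steps for a subset of miRNAs.

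The sequences below show what the members share and where they part, with the seed in capitals. They are RefSeq mature sequences (GRCh38.p14), and 5 of the 6 members matched an entry. No entry was found for miR-130a-3p, the guide strand miR-130a, so its sequence is not printed and the seed counts below leave it out.
miR-130b: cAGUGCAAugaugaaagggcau
miR-301a: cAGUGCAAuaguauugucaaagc
miR-301b: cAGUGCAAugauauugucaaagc
miR-454: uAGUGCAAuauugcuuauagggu
miR-130a*: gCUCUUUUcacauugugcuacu
miR-130b*: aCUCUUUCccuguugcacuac
The seed AGUGCAA stood in 6 of 2370 mature miRNA names of that table, or 0.253%. These are miR-130b, miR-301a, miR-301b, miR-454, miR-3666 and miR-4295. The list is not complete for the family, because miR-130a could not be checked. Past the seed the guides diverge. miR-301a and miR-301b were identical at 21 of 23 positions and differed by A10G and G11A, counted from the 5′ end with the base of miR-301a first. miR-130b and miR-301b matched over their first 12 bases and at 13 of 22 positions in all. Primers that do not separate miR-301a from miR-301b would blur the values of both, and primer sequences are not analysed here. The opposite strands carry other seeds. miR-130b* holds UUGCACU, the reverse complement of the family seed, at bases 13 to 19, a string found in 0.338% of the mature names.

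The hairpins come from 3 loci. MIR301B and MIR130B are neighbours on chromosome 22, with miR-301b at chr22:21653025-21653047 and miR-130b at chr22:21653354-21653375, both on the plus strand. MIR301A lies within SKA2, a gene of the spindle and kinetochore complex, on the minus strand, with miR-301a at chr17:59151149-59151171. MIR454 lies in the same gene, with miR-454 at chr17:59137787-59137809. MIR130A lies within the long noncoding gene MIR130AHG, with miR-130a* at chr11:57641212-57641233 on the plus strand.

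Values are quantification cycles (Ct), which are earlier where there is more RNA, and Ct under 35 counted as quantified. Between 521 and 732 of 740 miRNA wells reached this in each sample. A level was the sample's mean Ct over 499 wells quantified in all 4 samples minus the assay's Ct, and a log2 ratio was the difference of levels within a pair. Judged by the 7 assays spotted once on each panel, a log2 ratio had an SD of 0.38 in the knockdown and 0.79 in the NCS pair, and 0.35 in the latter without miR-423-5p, whose wells disagreed. Plate position moved with the ratios. On panel I, wells in columns 7 to 18, called middle here, had a median log2 ratio of -0.82 in the knockdown and 1.21 after NCS, against -0.22 and -0.16 in its outer columns. All 4 guide strands lie in those middle columns, in wells B12 (miR-130a), C16 (miR-130b), N14 (miR-301a) and B7 (miR-301b). The opposite strands lie on panel II, in P17 (miR-130a*) and G2 (miR-130b*). The 3 miRNAs among the repeated assays sit in column 2 of both panels, an outer column. The SD above was taken from differences between panels, and whether it holds for middle wells of panel I was not tested. Ratios of different miRNAs in those wells had quartiles of -1.67 and -0.14 in the knockdown, and of 0.13 and 2.84 after NCS. The part of plate position in the values below was not tested, and medians of nearby wells are given for family members and for miR-454 and its opposite strand. Of 6 miRNAs abundant in mesenchymal lines, all read between Ct 16.6 and 27.4, and of 6 typical of liver, neurons, muscle or blood, all read between Ct 25.7 and 34.9, so none of the latter was unread. DDX1 mRNA was not measured on these plates.

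The 4 guide strands were well within range in every sample. They read between Ct 20.6 and 27.9, ahead of 71.2% to 90.1% of the miRNA wells of panel I. miR-130a read Ct 20.6 in shNS, 21.3 in shDDX1, 26.0 without NCS and 25.4 with it. Its levels were 5.25, 4.88, 4.11 and 4.01 cycles above the sample mean, so both infected samples stood above the other pair. From shNS to untreated cells, however, middle wells of panel I read a median of 5.08 cycles later and its outer wells 4.17. On panel II these gaps were 3.19 and 3.41. The gap of miR-130a was 5.41, and the part of plate position in the order of samples was not tested. miR-130b read Ct 22.3, 23.4, 27.7 and 26.9 in the same order of samples. Its level was highest in shNS at 3.55 and lay at 2.76, 2.45 and 2.44 in the others.

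miR-301a read Ct 21.6 in both infected samples, 25.4 in untreated and 24.001 in NCS-treated cells. From shNS and shDDX1 to untreated and NCS-treated cells its levels were 4.23, 4.58, 4.66 and 5.37, an order opposite to that of miR-130a. miR-301b read Ct 23.1, 23.5, 27.9 and 26.3, with levels of 2.75, 2.61, 2.18 and 3.10, highest after NCS and lowest in untreated cells. Of the 12 steps between neighbouring samples in these orders, 2 were larger than the SD of repeated wells for that pair of samples. These were miR-130a in shDDX1 over untreated cells, by 0.769 (SD 0.708), and miR-130b in shNS over shDDX1, by 0.793 (SD 0.38). Without miR-423-5p the SD was 0.32 in the knockdown and 0.35 in the NCS pair. Steps of 0.373 for miR-130a and 0.349 for miR-301a in the knockdown exceeded these too, as did 0.709 for miR-301a after NCS.

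**Figure D1:**
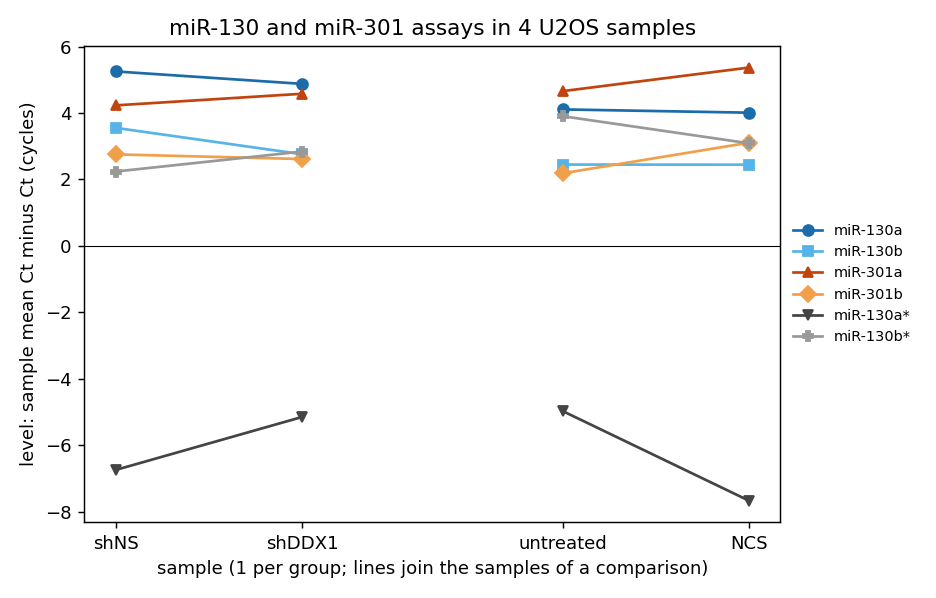
Level of each family assay (vertical axis, cycles above the sample's mean Ct) in the 4 samples, with lines joining the samples of a comparison and 1 sample per group. The 4 guide strands and miR-130b* lie above 0 in all samples, and miR-130a* lies between -7.67 and -4.97. Both ends of that range, in NCS-treated and untreated cells, read past Ct 35 and were not quantified, so the line between them gives no ratio.

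The Ct gap between members within a sample does not depend on how that sample or its panel I is centred, but it moves with adjustments made well by well. miR-301a read 1.02 cycles later than miR-130a in shNS and 0.298 later in shDDX1, but 0.55 earlier in untreated cells (-0.55) and 1.36 earlier after NCS (-1.36). The order of these 2 readings was thus reversed between the infected samples and the others. The gap of 0.298 in shDDX1 stands beside an SD of 0.191 cycles between repeated calibrator wells of a plate. Whether that SD holds for the wells of these guide strands was not tested. miR-301b read later than miR-130b by 0.797, 0.145 and 0.264 cycles in shNS, shDDX1 and untreated cells, and earlier after NCS, at -0.661. By contrast, miR-454 stayed 3.81 to 4.28 cycles behind miR-301a, with which it shares SKA2. miR-454 lies in an outer column and miR-301a in a middle one. Sharing a locus did not go with a steady gap in each case, as miR-301b and miR-130b are neighbours on chromosome 22. Between loci, miR-130b on chromosome 22 stayed 1.57 to 2.12 cycles behind miR-130a on chromosome 11. Ct gaps between assays also hold the unknown efficiencies of their primers, so they order readings and not amounts of RNA.

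The knockdown asks whether the level of the family depends on DDX1. In shDDX1 cells none of the 4 guide strands was 2-fold away from shNS. The quantified family, 6 of 6 assays, had 0 at least 2-fold lower and 1 at least 2-fold higher, the opposite strand miR-130a*. Over all quantified miRNAs 17.3% were lower and 11% higher by this rule, so the family's counts are too small to set apart from that background. miR-130b, which shares a locus with miR-301b, had the lowest log2 ratio at -0.79, a 1.73-fold difference. miR-130a was at -0.37, miR-301b at -0.14 and miR-301a at 0.35. The last 3 ratios were smaller than the SD of repeated wells, 0.38, but those of miR-130a and miR-301a exceeded the SD of 0.32 found without miR-423-5p. The median of the 4 was -0.26, against 0.037 over all quantified miRNAs.

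Nearby wells on the plate were lower too. Wells within 2 rows and 2 columns had a median of -1.07 around miR-130b, -1.05 around miR-130a, -0.66 around miR-301b and -0.18 around miR-301a. Relative to these, all 4 guide strands stood above 0, miR-130a at 0.68, miR-301a at 0.53, miR-301b at 0.52 and miR-130b at 0.28. In the panel I middle columns as a whole, 41.1% of miRNAs were at least 2-fold lower. The direction of the family in shDDX1 therefore changed with the scaling, as the plot of scalings shows. miR-130b ran from -1.46 against small RNA references to 0.28 after subtraction of nearby wells. In the former setting miR-130b and miR-130a were at least 2-fold lower, as were 35.9% of all miRNAs. miR-130a ran from -1.04 to 0.68, and miR-301a from -0.32 to 0.77 over the 8 scalings.

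In the authors' deposited fold table, which is not centred, miR-130b stood at 0.467 of shNS and was thus past 2-fold, where 24.4% of all quantified miRNAs were lower by that table. The authors' deposited folds for the other guide strands were 0.625 for miR-130a, 0.735 for miR-301b and 1.03 for miR-301a.

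**Figure D2:**
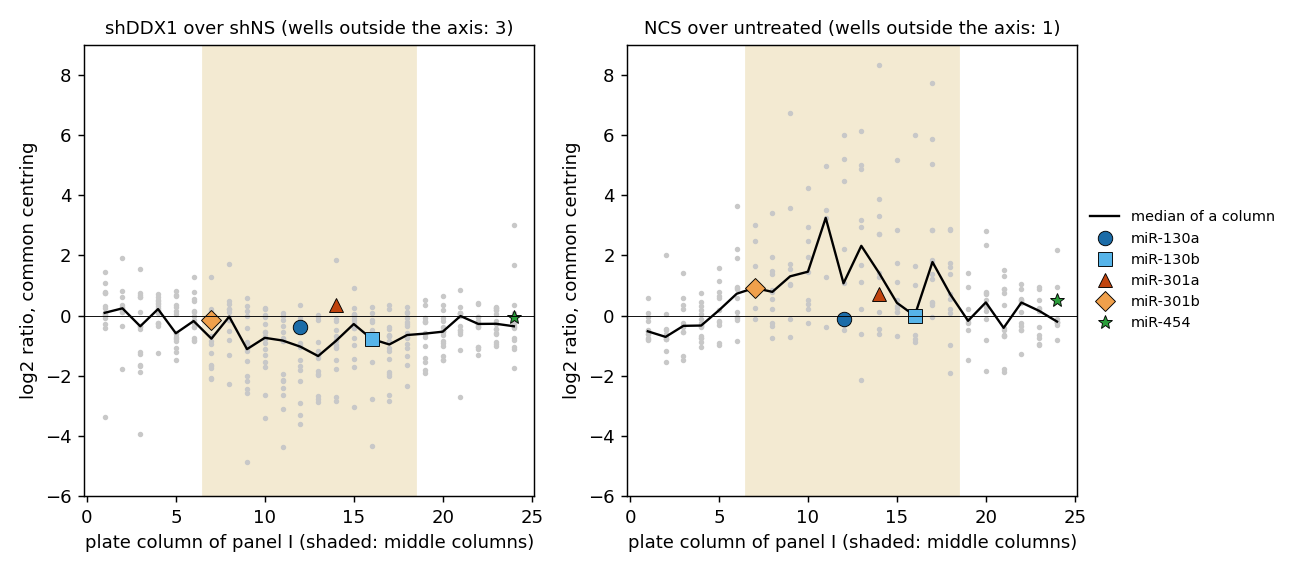
Log2 ratio under the common centring (vertical axis) of each quantified miRNA well of panel I against its plate column, for the knockdown (left) and NCS (right). Grey points are wells, the black line is the median of a column and the shaded band the middle columns. The 4 guide strands lie in the band, with miR-130a at -0.37 (left) and -0.098 (right), and miR-454 lies in column 24.

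The second comparison asks how the family stands 6 h after DNA breakage. After NCS none of the guide strands passed 2-fold under the common centring either, and miR-301a and miR-301b had higher ratios than miR-130a and miR-130b. miR-301b was at 0.92, a 1.89-fold difference, and miR-301a at 0.71, or 1.64-fold. miR-130b was at -0.0037 and miR-130a at -0.098. The median of the 4 was 0.35, against -0.38 over all quantified miRNAs. Of the 5 quantified family assays, 0 were at least 2-fold higher and 0 lower, where 16.9% and 22.3% of all miRNAs were. The SD of repeated wells, 0.79, exceeded every guide ratio but that of miR-301b.

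The wells near miR-130a stood far from it. Their median log2 ratio was 2.83 over 10 quantified wells, so miR-130a was at -2.93 relative to them. Around miR-130b the median was 1.21 and the relative value -1.21. miR-301b and miR-301a were close to their surroundings, with medians of 0.90 and 0.26 and relative values of 0.017 and 0.45. Of the miRNAs in the middle columns of panel I, 55.8% were at least 2-fold higher, so miR-130a and miR-130b were below most wells of their own zone. Wells of those columns read a median of 5.08 cycles later in untreated cells than in shNS. For miR-130a this gap was 5.41 and for miR-130b 5.37, while it was 4.84 for miR-301b and 3.84 for miR-301a.

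Some other scalings placed the 4 guide strands higher and some placed them lower. Against small RNA references miR-301b stood at 1.71, miR-301a at 1.498, miR-130b at 0.78 and miR-130a at 0.69, in a setting where the median of all miRNAs was 0.40. With each panel centred separately the values were 0.12, -0.094, -0.81 and -0.90. The authors' deposited fold table gave 4.06-fold for miR-301b, 3.10 for miR-301a, 1.74 for miR-130b and 1.35 for miR-130a. Of all quantified miRNAs, 31.3% were at least 2-fold higher there. Its NCS values rest on shifted Ct values that moved each well by its own amount, which added 0.37 to the log2 ratio of miR-301b and -0.20 to that of miR-130a. miR-301b and miR-301a thus passed 2-fold in the authors' table and against small RNAs, against reference miRNAs and without centring, where 31.7%, 21.5% and 28.9% of all miRNAs did. They passed it in no of the settings that centred or calibrated each panel by itself or subtracted nearby wells.

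**Figure D3:**
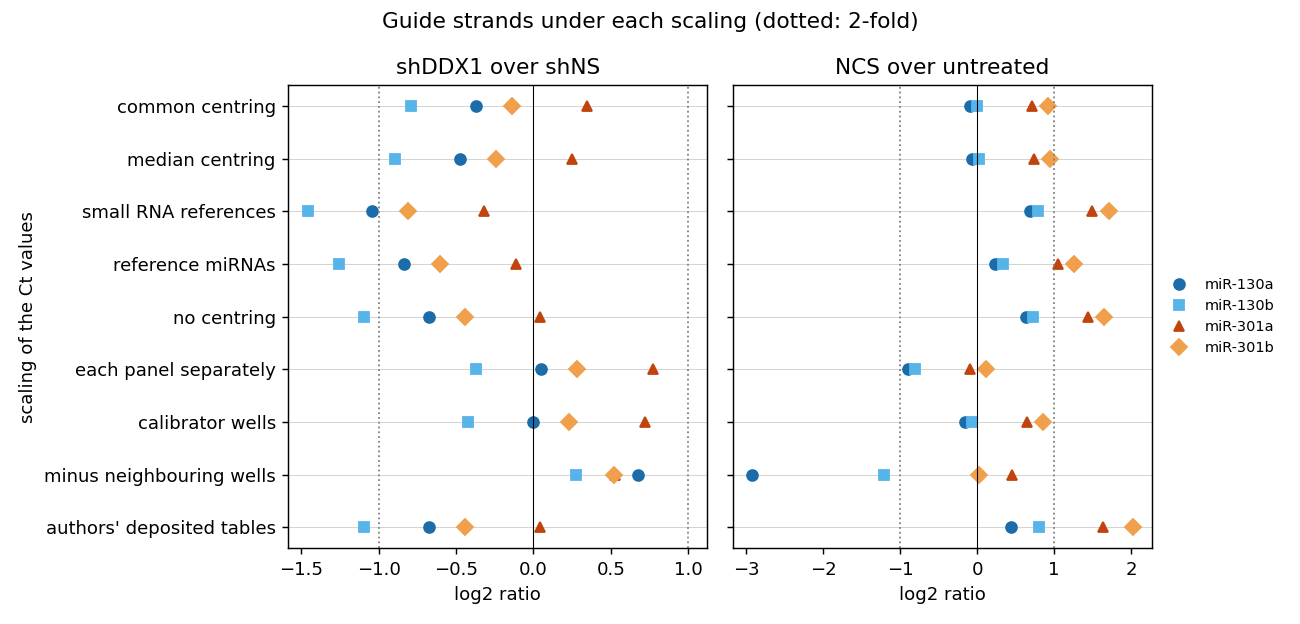
Log2 ratio (horizontal axis) of the 4 guide strands under the 8 scalings and in the authors' deposited tables (vertical axis), for the knockdown (left) and NCS (right), with dotted lines at 2-fold. Scalings that treat panel I as a unit move the 4 points together, and subtraction of nearby wells takes miR-130a to 0.68 on the left and -2.93 on the right.

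Differences between guide strands within a comparison are the same under every scaling that moves panel I as a whole. In the knockdown 3 of 6 pairs differed by more than 0.54, the SD of a difference between ratios, taken from the repeated wells. Whether that SD holds for the middle columns, where the guide strands lie, was not tested. miR-130b was below miR-301a by 1.14 (-1.14) and below miR-301b by 0.65 (-0.65), and miR-130a was below miR-301a by 0.72 (-0.72). After subtraction of nearby wells these were -0.25, -0.24 and 0.15. Without miR-423-5p the SD was 0.46, and 4 of 6 pairs passed it, the added pair being miR-301a over miR-301b, by 0.49. After NCS 0 of 6 pairs passed the larger SD of 1.12, and 4 of 6 passed 0.50, the SD without miR-423-5p. Those 4 set miR-130a and miR-130b each below miR-301a and miR-301b, from -0.71 for miR-130b against miR-301a to -1.02 for miR-130a against miR-301b. After subtraction of nearby wells these differences ran from -1.23 to -3.37. For the neighbours on chromosome 22, miR-130b minus miR-301b was -0.65 in the knockdown, beyond the SD of 0.54, and -0.92 after NCS, within the SD of 1.12. For the pair in SKA2, miR-301a minus miR-454 was 0.41 and 0.20, both within the SD. These lie in different column zones of panel I, and after subtraction of the median of each zone the differences were 1.002 and -1.16, while those of the chromosome 22 pair, in 1 zone, stayed as given. After subtraction of nearby wells the SKA2 pair was at 0.22 and 0.15 and the chromosome 22 pair at -0.24 and -1.23.

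The opposite strands and their guides were read on different panels, so their comparison depends on how the panels are joined. miR-130b* read Ct 23.6 in shNS, 23.3 in shDDX1, 26.2 without NCS and 26.3 with it, earlier than 94.0% to 97.3% of panel II miRNA wells. Its log2 ratio was 0.60 in the knockdown, against -0.79 for miR-130b, and -0.82 after NCS, against -0.0037. Wells near miR-130b* had medians of 0.48 and -0.048, and relative to them it was at 0.12 and -0.77. Its knockdown ratio was 0.17 with each panel centred separately and -0.065 against small RNAs. With each panel centred separately, guide minus opposite strand went from -1.39 to -0.54 in the knockdown and from 0.81 to -0.82 after NCS, which turned the direction of the NCS difference. miR-130b* was 1.31 cycles behind miR-130b in shNS. It was ahead in the other samples, with gaps of -0.081 in shDDX1, -1.46 in untreated cells and -0.644 after NCS.

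miR-130a* was the rarest reading of the family. It gave Ct 32.6 in shNS, 31.3 in shDDX1, 35.1 without NCS and 37.03 with it, 9.08 to 11.99 cycles behind miR-130a. In shDDX1 its log2 ratio was 1.59, a 3.01-fold difference, and between 0.84 and 1.59 over the 8 scalings. Nearby wells had a median of 0.75. Guide minus opposite strand was -1.97 under the common centring and -1.11 with each panel centred separately, where miR-130a itself was at 0.049. Both readings came after the earliest water well of panel II, which read Ct 26.6 in shNS and 26.5 in shDDX1, so background signal in them was not tested. Neither NCS sample was under 35, so no ratio is given there.

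The relatives of the family were miR-454, with the same seed, and 5 guide strands whose seed is shifted by 1 base. Shown for the shift are 2 of them, again with the seed in capitals.
miR-19a: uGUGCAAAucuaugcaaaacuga
miR-148b: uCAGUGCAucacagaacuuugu
miR-454 read Ct 25.5 in shNS, 25.8 in shDDX1, 29.2 without NCS and 28.0 with it. Under the common centring its log2 ratios of -0.057 and 0.51 lay within the range of the 4 family guide strands in both comparisons. After subtraction of the median of each column zone it was at 0.17 in the knockdown, still within their range. After NCS it was then at 0.67, above all 4 guide strands, which ran from -1.30 to -0.28. It sits in the outer columns of panel I, where nearby wells had medians of -0.37 and 0.21. The opposite strand miR-454*, on panel II, was at 0.55 in the knockdown and at -1.22 after NCS, or -0.39 with each panel centred separately. Its nearby wells had medians of 0.23 and -0.68 under the common centring.

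Among the 5 shifted-seed relatives 0 passed 2-fold in the knockdown, from miR-148b at -0.82 to miR-19b at 0.74. After NCS 3 of 5 were at least 2-fold higher, the miR-148 and miR-152 strands, beside 16.9% of all miRNAs and 55.8% of those in the middle columns of panel I. miR-148b was at 3.32, miR-152 at 2.83 and miR-148a at 1.68, while miR-19a was at 0.12 and miR-19b at -0.77. All 3 higher strands lie in the middle columns of panel I, and both miR-19 strands in the outer ones. With each panel centred separately 2 stayed at least 2-fold higher, with miR-148a at 0.88, and miR-19b was at -1.57 and thus lower. After subtraction of column zones 2 stayed higher, with miR-148a at 0.48. Relative to nearby wells the higher strands were at 1.97, 1.24 and 1.198. In untreated cells miR-148b read Ct 28.9, against 22.3 in shNS and 24.9 after NCS. The 4 family guide strands lie in the same middle zone and did not pass 2-fold under the common centring. miR-130a, miR-130b and miR-301b lie in other columns of it than the higher strands. miR-301a shares column 14 with miR-148b and was at 0.71. The part of plate position in these ratios was not tested.

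**Figure D4:**
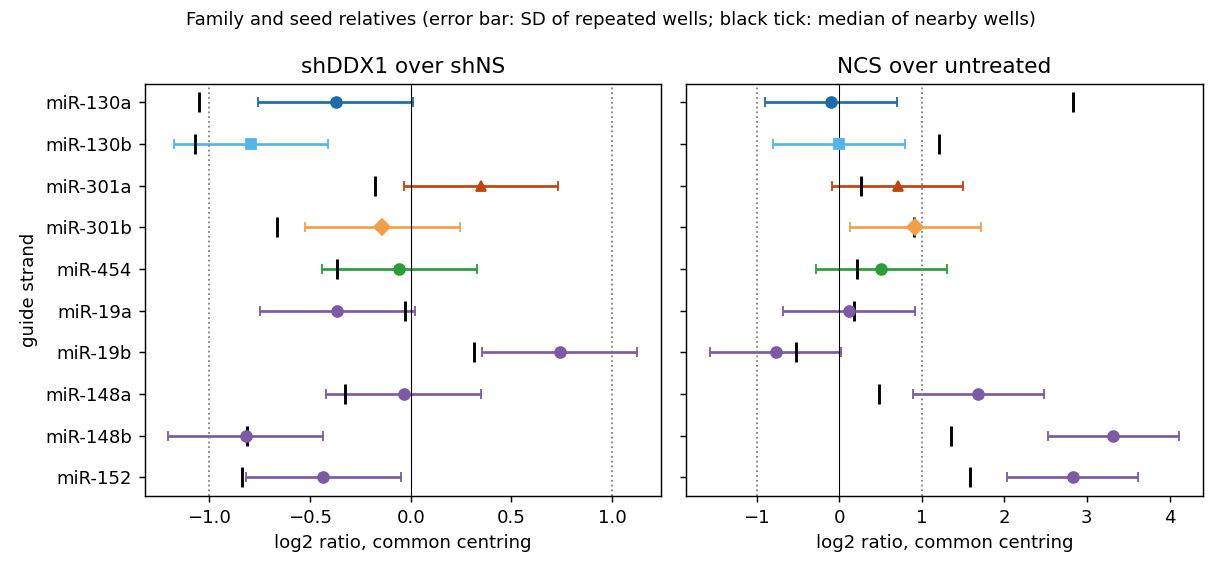
Log2 ratio (horizontal axis, common centring) of the family guide strands and their seed relatives for the knockdown (left) and NCS (right), with bars for the SD of repeated wells (0.38 and 0.79) and black ticks for the median of nearby wells. On the right miR-148a, miR-148b and miR-152 lie past the dotted 2-fold line and the 4 family guide strands do not, with miR-130a at -0.098 beside nearby wells at 2.83.

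Likeness was measured as the Euclidean distance between levels in the 4 samples after each miRNA's own mean was subtracted, over 249 other miRNAs of panel I. miR-130a and miR-130b were close to each other, at a distance of 0.424, which made miR-130b the 8th nearest to miR-130a and miR-130a the 4th nearest to miR-130b. Nearest to miR-130a were miR-216b at 0.263, miR-486-5p at 0.348 and miR-576-5p at 0.391. Nearest to miR-130b were miR-887 at 0.161, miR-486-5p at 0.247 and miR-193a-5p at 0.376. For miR-301a they were miR-378 at 0.295, miR-423-3p at 0.329 and miR-518a-3p at 0.332, with miR-301b in place 47. For miR-301b they were miR-25 at 0.175, miR-10b at 0.283 and miR-99b at 0.294, with miR-301a in place 38 and its chromosome 22 neighbour miR-130b in place 75. Over the 4 samples and under the common centring, miR-130a and miR-130b thus lay closer to each other than either lay to miR-301a or miR-301b. Plate position was not taken out of these distances. After subtraction of nearby wells, miR-130a minus miR-130b was 0.40 in the knockdown and -1.72 after NCS. There, after NCS, miR-130b minus miR-301a was -1.66 and minus miR-301b -1.23. For miR-130a those differences were -3.37 and -2.94, so the closeness after NCS depended on the scaling for miR-130b.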

How the data were processed

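Total RNA (Trizol) went through an Exiqon reverse transcription kit and SYBR Green PCR on panels I and II of 384 wells, per the labels. The instrument is not given in the sources used here. Deposited by the authors were Ct values per well, shifted Ct values, and a table of linear fold over each control. Starting from the Ct table, repeats of 3 miRNAs were averaged and each sample was centred on its mean Ct over 67.4% of 740 miRNA wells. One cycle was taken as 1 doubling. Control columns of the fold table hold 1 and were not used. Depth is the number of wells under Ct 35, and repeated calibrator wells varied with an SD of 0.191 cycles within a plate. Members, lists, alternatives and the naming rule (all members, miR-454, 5 shifted-seed relatives, and the 3 miRNAs nearest each guide strand) were chosen with earlier results of these data known. The code (Python 3.11.15, pandas 2.3.3) was tested on simulated Ct values. RefSeq sequences and neighbouring genes are from GRCh38.p14.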

Additional observations from a re-analysis of the deposited data

Results flagged for a closer look

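Signal was seen in water wells, which lie outside the measurement of the family. The earliest read Ct 26.6 in shNS and 26.5 in shDDX1, on panel II, and 0 of 9 water wells gave a Ct in untreated or NCS-treated cells. On panel I the earliest water well read 27.8 and 27.3, later than all 4 guide strands in those samples, whose latest Ct was 23.1 and 23.5. miR-130a* is the family assay that reads later than a water well.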

How the results depend on the processing

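No paired analysis was possible because the groups hold 1 sample each, and for that reason no sample could be left out. Centring on miR-103 and miR-191 alone, since the wells of miR-423-5p disagree, and subtraction of column zones (middle or outer columns of a panel) were chosen after the data were seen. In the knockdown the guide median of -0.26 was -0.92 against small RNAs, -0.72 against reference miRNAs, -0.67 against miR-103 and miR-191, 0.17 with each panel centred separately, 0.52 after subtraction of nearby wells and 0.56 after subtraction of column zones. The count of family assays at least 2-fold lower, 0, was 2 against small RNAs and 1 against reference miRNAs, miR-103 and miR-191, without centring, in both of the authors' deposited tables and at 1.5-fold. After NCS the guide median of 0.35 was -0.45 with each panel centred separately, -0.60 after subtraction of nearby wells, -0.85 after subtraction of column zones, 1.22 in both of the authors' deposited tables and 1.18 against miR-103 and miR-191. The count at least 2-fold higher, 0, was 2 against small RNAs, reference miRNAs, miR-103 and miR-191, without centring, in both deposited tables and at 1.5-fold. The other 32 of 58 alternatives for these 4 results stayed within the SD of repeated wells or kept the count. That SD is wide for NCS, and these 32 include guide medians of 1.14 against small RNAs, 1.09 without centring and -0.0037 over all family assays after NCS, and of 0.12 with calibrator wells and 0.10 over all family assays in the knockdown. Of 121 alternatives for single assays, 61 moved by more than that SD and 34 had the other sign. The 1 ratio past 2-fold, that of miR-130a* in the knockdown, kept its sign but moved by more than that SD in 7 of 11 alternatives. It was under 2-fold against small RNAs, at 0.93, and after subtraction of nearby wells, at 0.84. Against the common centring, the median of all miRNAs moved from 0.037 to -0.63 (knockdown) and from -0.38 to 0.40 (NCS) with small RNA references.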
